A study of Mus musculus with 18 samples.

Results

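Long terminal repeat (LTR) retroelements supplied the base at the centre of 3738 of 61661 open-chromatin peaks in stress erythroid progenitors of the mouse spleen and of 1561 of 35142 peaks in steady-state bone marrow (BM) progenitors. Together these were 5299 of the 96803 peaks in both lists. A peak was taken as an LTR peak when the authors' HOMER annotation, which reports the feature at the peak centre, gave a repeat of class LTR. No measured level entered that choice. A peak whose edge, but not its centre, lies in an LTR was not counted. Under this rule each LTR peak carried a repeat name and a family by definition, which is no check of the label. In the same annotation each lay in an intron or between genes, as did every peak centred on a LINE, SINE or DNA element.

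LTR retroelements are the remains of retroviruses and related elements that copied themselves into the genome through RNA. An intact copy has a protein-coding part between a pair of LTRs, and an LTR carries the promoter and enhancer that drove transcription of the element. Recombination often leaves a solitary LTR, and many such LTRs keep sites for transcription factors, which is why LTRs are known as a source of tissue-specific enhancers. In the mouse the main families are ERVL-MaLR (non-autonomous ORR1, MT and MLT elements), ERVK (with the intracisternal A particles, IAP), ERVL and ERV1 (with VL30). Most copies are held silent by DNA methylation and by the TRIM28 and SETDB1 machinery.

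All mice were of the B6SJL strain. The stress progenitors came from spleens taken 8 days after lethal irradiation and transplantation of unfractionated BM cells, and the steady-state progenitors came from BM of mice without that treatment. Lineage-positive cells were removed before sorting, and burst-forming units-erythroid (BFU-E), the earliest committed erythroid progenitors, were the Sca-negative sort. ATAC-seq, in which a transposase cuts open chromatin, was done on 3 libraries of stress spleen BFU-E and 3 of BM BFU-E, with Nextera transposomes. RNA-seq covered 3 libraries each of stress spleen BFU-E and BM BFU-E, and of stress spleen colony-forming units-erythroid (CFU-E, the next stage, a CD9-negative sort) and multipotent progenitors (MPP, a Sca-positive sort). Tissue, irradiation, transplantation and the streptavidin dye of the sort changed together between spleen and BM, so their effects cannot be told apart.

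The authors deposited 1 reproducible peak list per population, made from its 3 ATAC libraries. There is therefore no spread between replicates for any share of peaks, no test was made of the ATAC lists, and the intervals given are 95% Wilson intervals that cover counting error only. Peaks on copies of 1 element share their sequence and are not independent. Sequencing depth of the ATAC libraries is unknown here. RNA depth was 5937778 to 13197159 counts per library. Kit, the stem cell factor receptor of early progenitors, averaged 308 ± 47.5 CPM in stress spleen BFU-E and 305 ± 32.7 CPM in BM BFU-E (SD, n = 3 each). Other erythroid markers went both ways between stress spleen and BM BFU-E. Tfrc averaged 118 and 41.2 CPM, Epor 22.8 and 4.99 CPM, and Car1 28.9 and 43.7 CPM. The megakaryocyte markers Itga2b (768 and 884 CPM) and Pf4 (276 and 541 CPM) were abundant in both. So was the granulocyte marker Mpo (543 and 742 CPM). None of these genes was called by edgeR. The macrophage marker Csf1r averaged 9.35 ± 0.24 CPM in stress spleen BFU-E and 92.5 ± 37.4 CPM in BM BFU-E (SD, n = 3 each). Gata1, the erythroid master factor, had 103 to 123 CPM in stress spleen BFU-E, against 10.3 to 148 CPM in BM BFU-E, where library 3 stood apart at the lowest value. Nothing in the labels says that the libraries came from separate animals, so p-values measure the spread between libraries, which may be technical. In these bulk samples fewer cells of a type and less RNA per cell cannot be told apart.

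The sequences below are from the reference genome (GRCm38, RefSeq assembly) at the authors' mm10 coordinates, 5′ to 3′ on the strand named. ORR1B1, an ERVL-MaLR element, is shown because most of its peaks hold 1 shared word. The capitals mark GAGGAAGT, the consensus of PU.1, an ETS-family factor of myeloid and early blood progenitors. For ORR1B1, and for RLTR10C, RLTR45 and IAPLTR1_Mm below, only copies that hold the first marked word were shown. Each was cut at a fixed distance around that word. Each copy is named by the gene with the nearest annotated start, and no measurement ties a peak to that gene.

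ORR1B1 near H2-D1, chr17:35259279-35259348, minus strand: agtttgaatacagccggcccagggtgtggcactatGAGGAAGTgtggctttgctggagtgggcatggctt

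ORR1B1 near Fam168b, chr1:34838422-34838491, plus strand: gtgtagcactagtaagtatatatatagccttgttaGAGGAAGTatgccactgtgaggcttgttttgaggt

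ORR1B1 near Lrrc8b, chr5:105409275-105409344, plus strand: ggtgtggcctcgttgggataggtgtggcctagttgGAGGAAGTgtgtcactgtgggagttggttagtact

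ORR1B1 near Ndufab1, chr7:122094687-122094756, plus strand: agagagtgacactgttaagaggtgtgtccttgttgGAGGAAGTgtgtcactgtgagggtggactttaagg

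ORR1B1 near Leo1, chr9:75429178-75429247, plus strand: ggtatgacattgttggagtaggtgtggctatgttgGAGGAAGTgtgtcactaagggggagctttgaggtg

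ORR1B1 near Prkrir, chr7:98690987-98691056, plus strand: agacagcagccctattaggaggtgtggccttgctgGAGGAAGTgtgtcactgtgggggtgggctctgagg

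ORR1B1 near Ppp1r15b, chr1:133118352-133118421, minus strand: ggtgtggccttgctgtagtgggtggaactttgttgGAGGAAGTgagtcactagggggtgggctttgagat

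The bases before the marked word differ more between these 7 copies than the bases just after it. GAGGAAGT lay within 100 bases of the centre, on either strand, in 120 of 176 ORR1B1 peaks (68.2%) over both lists. It was found in 15.3% of all 3868 distinct LTR peaks, which are the stress spleen LTR peaks plus the BM LTR peaks that overlap no stress spleen peak. Other peaks over 1 kb from a gene start, called other distal peaks from here on, held it in 4.95% of cases in the stress spleen list. Of the 7 copies shown, only the peak near Ppp1r15b, an eIF2α phosphatase subunit of the stress response, overlapped no BM peak.

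RLTR10C, an ERVK LTR, is shown because it had 39 peaks in the stress spleen list and 2 in the BM list. The capitals mark CCAATCA, the core of the NF-Y site, and sites of GATA factors.

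RLTR10C near 1700018B24Rik, chr3:48566629-48566723, plus strand: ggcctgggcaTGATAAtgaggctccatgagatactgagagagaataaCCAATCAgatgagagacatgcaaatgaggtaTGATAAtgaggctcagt

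RLTR10C near Aggf1, chr13:95376941-95377035, plus strand: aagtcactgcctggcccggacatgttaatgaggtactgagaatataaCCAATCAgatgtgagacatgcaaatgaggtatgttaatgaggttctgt

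RLTR10C near Pdpr, chr8:111092451-111092545, plus strand: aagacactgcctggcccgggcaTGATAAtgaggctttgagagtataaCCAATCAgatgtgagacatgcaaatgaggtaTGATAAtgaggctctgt

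RLTR10C near Helz, chr11:107570830-107570924, minus strand: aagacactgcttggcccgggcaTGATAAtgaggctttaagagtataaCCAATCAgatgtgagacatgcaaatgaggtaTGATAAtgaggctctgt

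Each of these 4 peaks was in the stress spleen list alone. The copies were chosen for holding CCAATCA and were cut around it, so its shared place in all 4 comes from the cut. TGATAA stands on both sides of it in the copies near 1700018B24Rik, Pdpr and Helz. The word atgcaaat, the octamer bound by POU factors, follows in each. That word was looked for only after these sequences were seen, and it lay within 100 bases of the centre in 32 of 39 RLTR10C peaks (82.1%), against 1.37% of all distinct LTR peaks and 0.984% of other distal stress spleen peaks.

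RLTR45, another ERVK LTR, is shown for the stretch its copies share. The capitals mark CCCTGATA.

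RLTR45 near Clpx, chr9:65288388-65288497, plus strand: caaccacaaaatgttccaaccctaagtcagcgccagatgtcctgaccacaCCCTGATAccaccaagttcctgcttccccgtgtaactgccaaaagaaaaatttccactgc

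RLTR45 near Fam98a, chr17:75558524-75558633, plus strand: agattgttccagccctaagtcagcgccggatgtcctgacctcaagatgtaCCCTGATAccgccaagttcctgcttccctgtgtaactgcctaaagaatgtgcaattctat

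RLTR45 near Smc5, chr19:23283127-23283236, plus strand: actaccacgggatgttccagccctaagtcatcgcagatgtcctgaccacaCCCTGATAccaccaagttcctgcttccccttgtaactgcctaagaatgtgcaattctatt

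The word AAGTTCCT follows the marked stretch in these copies. It lay within 100 bases of the centre in 125 of 145 RLTR45 peaks (86.2%), against 1.42% of other distal peaks. Copies of 1 element share sequence by descent, and copies of the element outside peaks were not searched. These copies therefore show what open LTRs of a name have in common and not what sets them apart from closed ones.

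IAPLTR1_Mm and IAPEY4_LTR are LTRs of IAP elements, which are young and of near-identical sequence. They are shown because identical copies bear on how far a read can be placed. The capitals mark CCAATCA in IAPLTR1_Mm and TTGCCCAA, a match to the CEBP half-site pair TTGCNNAA, in IAPEY4_LTR.

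IAPLTR1_Mm near Celf2, chr2:7404187-7404286, plus strand: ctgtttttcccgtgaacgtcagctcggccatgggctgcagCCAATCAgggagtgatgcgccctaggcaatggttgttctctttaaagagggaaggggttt

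IAPLTR1_Mm near Dcaf7, chr11:106028399-106028498, minus strand: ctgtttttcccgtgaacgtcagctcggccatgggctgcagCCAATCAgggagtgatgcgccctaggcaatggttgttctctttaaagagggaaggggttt

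IAPEY4_LTR near Dydc2, chr14:41053452-41053521, plus strand: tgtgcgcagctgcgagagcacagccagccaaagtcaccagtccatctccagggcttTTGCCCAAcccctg

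IAPEY4_LTR near Dydc2, chr14:41061390-41061459, plus strand: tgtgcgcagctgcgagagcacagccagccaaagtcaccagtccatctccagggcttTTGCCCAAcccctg

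The IAPLTR1_Mm stretches are the same letter for letter on 2 chromosomes. The IAPEY4_LTR windows, in an intron of Dydc2, are alike in all 70 bases, and their peak centres lie 7810 bp apart.

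Of LTR, SINE, LINE and DNA elements, LTRs were the most frequent at peak centres in both populations. They made up 6.06% of stress spleen peaks (5.88 to 6.25) and 4.44% of BM peaks (4.23 to 4.66), a ratio of shares of 1.36 (1.29 to 1.45). The stress spleen list held 1.75 times as many peaks as the BM list and 2.39 times as many LTR peaks. Only 16 of the stress spleen LTR peaks and 6 of the BM ones lay within 1 kb of a gene start, so the share depends on how many promoter peaks a list holds. Among peaks beyond 1 kb it was 7.83% in the stress spleen list (3722 of 47530) and 6.63% in the BM list (1555 of 23450), a ratio of 1.18. SINE elements had a ratio of 1.33 on that measure, LINE elements 1.03 and DNA transposons 1.05.

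**Figure D1:**
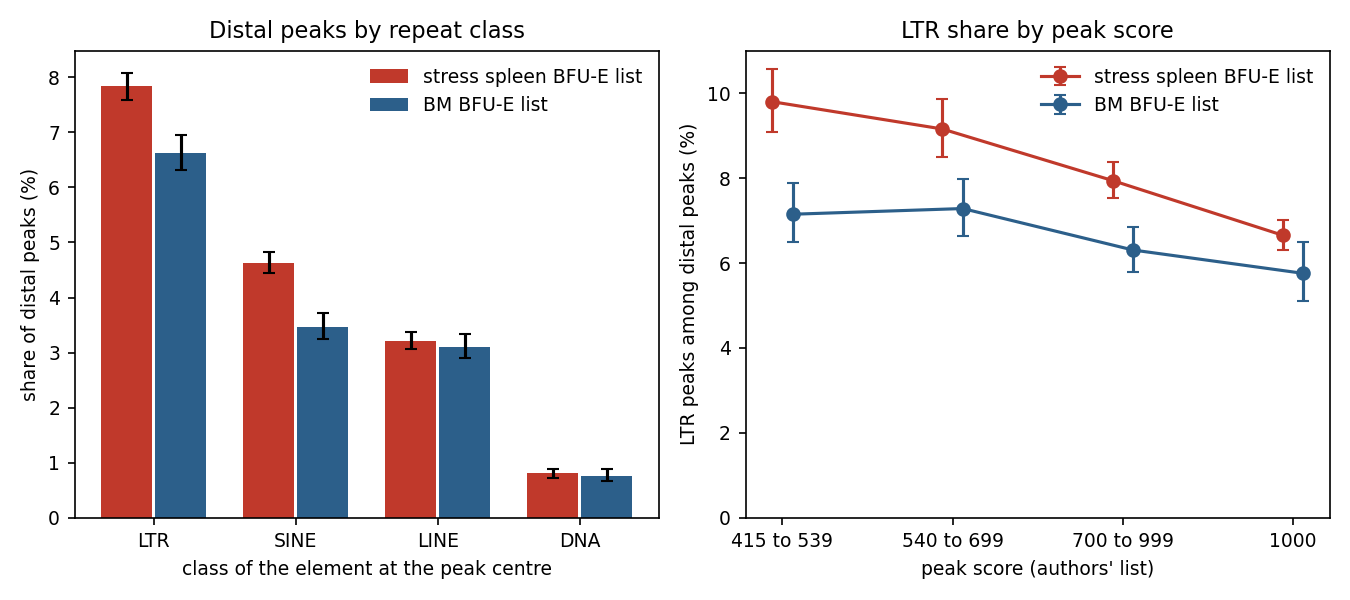
Left, share of distal peaks (over 1 kb from a gene start) centred on each repeat class, in percent, in stress spleen BFU-E and BM BFU-E. Right, LTR share of distal peaks by band of peak score. Bars and points carry 95% Wilson intervals. LTR is the tallest class in both lists, at 7.83% of distal stress spleen peaks and 6.63% of distal BM peaks.

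The LTR shares lay closer together when the lists were made equal in length. When the stress spleen list was cut to its 35142 highest-scoring peaks, the length of the BM list, LTRs made up 4.64% of it (1629 peaks) against 4.44% of the BM list, a ratio of 1.04 (0.975 to 1.12). Among peaks beyond 1 kb the shares were then 6.85% and 6.63%. The score is the authors' value for each peak, at most 1000, and scores of lists made from different libraries are not on 1 scale. Why the stress spleen list is longer was not tested.

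Within the distal peaks of each list LTR share was lowest at the top score. In score bands of under 540, 540 to under 700, 700 to under 1000, and 1000, it was 9.80%, 9.16%, 7.94% and 6.65% in stress spleen BFU-E. In BM BFU-E it was 7.15%, 7.28%, 6.31% and 5.76%, lower than in stress spleen BFU-E in each band. LTR peaks were also smaller than other distal peaks: in the stress spleen list their median width was 487 bp against 540 bp, and their median score 865 against 925. This was not particular to LTRs: LINE, SINE and DNA peaks there had median widths of 509, 389 and 500.5 bp. The median scores of these classes were 874.5, 779 and 901.5. The median distance of LTR peaks from a gene start was 24.9 kb, 2305 were intergenic and 1433 intronic. The intergenic share was 61.7% of LTR peaks and 45.5% of other distal peaks. Other distal peaks also hold peaks annotated as neither intronic nor intergenic, which LTR peaks do not, so these shares have unlike bases. Among LINE, SINE and DNA peaks the intergenic share was 51.0%, 41.8% and 48.4%.

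Most LTR peaks of stress spleen BFU-E had no counterpart in BM BFU-E, and nearly all of the BM ones had one in stress spleen. Of the 3738 stress spleen LTR peaks, 1446 shared at least 1 base with a BM peak (38.7%, 37.1 to 40.3), against 47.3% of other distal peaks. Of the 1561 BM LTR peaks, 1431 overlapped a stress spleen peak (91.7%, 90.2 to 92.9), against 93.9% of other distal peaks. By this measure stress spleen SINE peaks stood lower, at 30.6%, and LINE and DNA transposon peaks higher, at 42.1% and 45.9%. Stress spleen LTR peaks that overlapped a BM peak had a median score of 1000, and those that did not had 707. Other distal peaks of that list had 1000 and 737. In 252 of the 1446 overlapping pairs the BM peak was not itself centred on an LTR.

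The ERVL-MaLR family gave more than the other families together. It held 2063 stress spleen LTR peaks (55.2%) and 883 BM LTR peaks (56.6%). ERVK held 917 and 357, ERVL 376 and 171, and ERV1 339 and 135, in stress spleen and BM BFU-E. The ratio of each family's share of all peaks, stress spleen over BM, was 1.46 for ERVK, 1.43 for ERV1, 1.33 for ERVL-MaLR and 1.25 for ERVL. Among these 4 large families overlap with BM peaks ran from 35% of ERVK peaks to 42.3% of ERVL peaks. The families therefore made up similar parts of both lists.

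Single names varied more than families. The lists held 414 LTR names, 401 in stress spleen and 284 in BM BFU-E. Of the 49 names with at least 20 peaks over both lists, 38 had the larger share in stress spleen BFU-E. ORR1 names alone made up 1206 of the stress spleen LTR peaks (32.3%) and 484 of the BM ones (31.0%). ORR1E led with 333 and 132 peaks, a ratio of shares of 1.44. MTD had 211 and 100 peaks, ORR1D2 183 and 79, and MTEa 76 and 43, with a ratio of 1.01 for MTEa. ORR1B1 stood higher than these, with 171 stress spleen and 53 BM peaks, a ratio of 1.84.

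**Figure D2:**
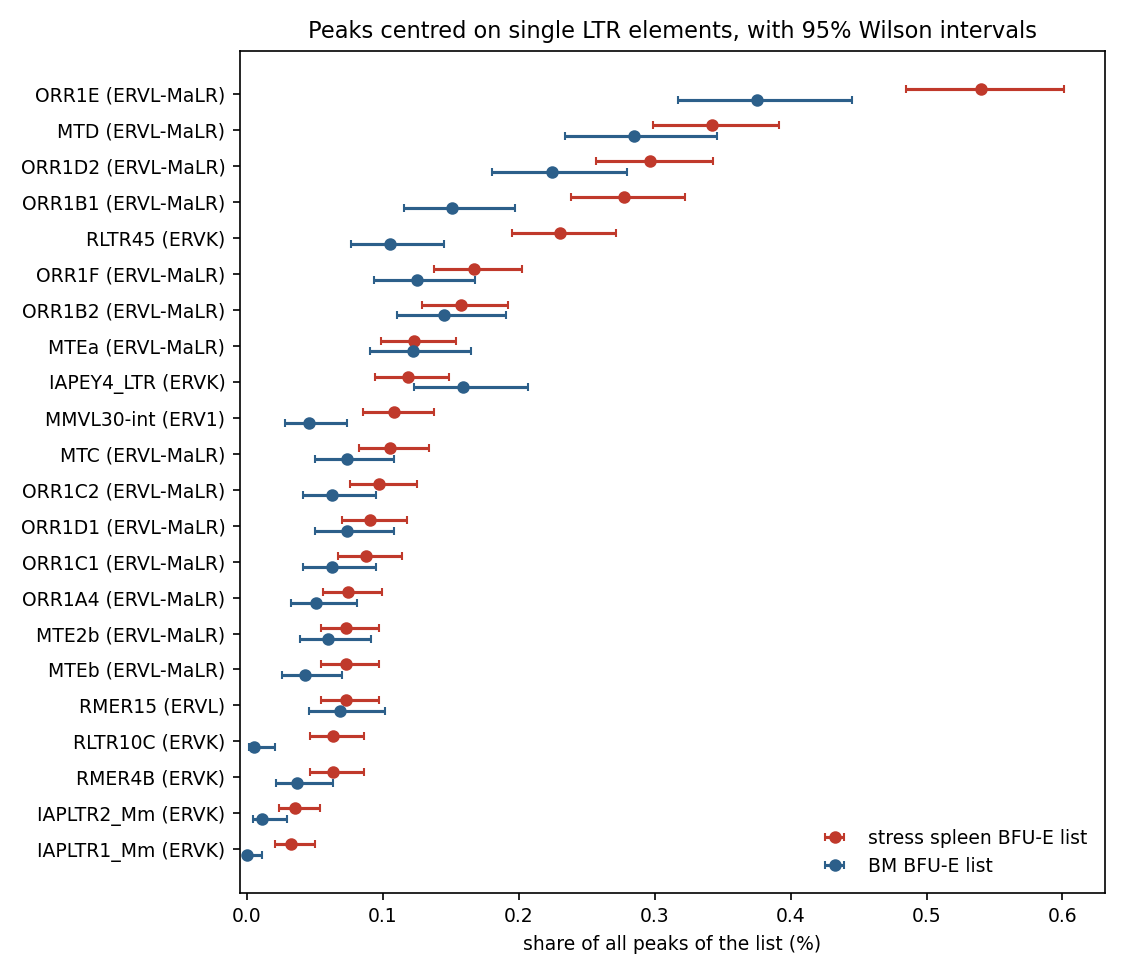
Share of all peaks (percent) held by the leading LTR names in stress spleen BFU-E and BM BFU-E. ORR1E is the most frequent name in both lists, and IAPEY4_LTR is a name with the larger share in BM, at 73 stress spleen and 56 BM peaks.

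Young ERVK and ERV1 elements had the most unequal counts. RLTR10C had 39 stress spleen and 2 BM peaks, a ratio of shares of 11.1 with an exact counting interval of 2.88 to 95. IAPLTR1_Mm had 20 stress spleen peaks and none in BM. IAPLTR2_Mm had 22 and 4, RLTR45 142 and 37 (ratio 2.19), and MMVL30-int, the internal part of VL30, 67 and 16 (ratio 2.39). IAPEY4_LTR went the other way, with 73 and 56 peaks and a ratio of 0.743, and all 56 of its BM peaks overlapped a stress spleen peak. These names were picked for their counts in the lists, so the ratios describe the lists.

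Cutting the stress spleen list to the length of the BM list moved these names differently. RLTR10C kept a ratio of 4.0 on 8 stress spleen and 2 BM peaks, with an interval of 0.798 to 38.7. RLTR45 came to 0.919, close to equal shares, and MMVL30-int to 0.5. No IAPLTR1_Mm peak was left in either list. ORR1B1 came to 1.15 and IAPEY4_LTR to 1.09.

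How far reads can be placed in these elements differed by family. The 50 bases at a peak's centre occurred once in the reference for 89.6% of stress spleen LTR peaks and 91.4% of BM LTR peaks, against 97.5% and 97.4% of other distal peaks. For ERVL-MaLR the share was 98.4% in both lists. For ERVK it was 73.0% in stress spleen and 75.1% in BM, and for ERV1 70.5% and 80.7%. Among distinct peaks it was 98.3% for ORR1B1 and 100% for MTD, but 62.1% for RLTR45, 41.0% for RLTR10C, 17.9% for MMVL30-int, 17.8% for IAPEY4_LTR, 13.6% for IAPLTR2_Mm and 0% for IAPLTR1_Mm. The median IAPLTR1_Mm centre had 28 copies. How the authors placed reads that match several copies is not given in the sources used here, and its part in these counts was not tested.

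**Figure D3:**
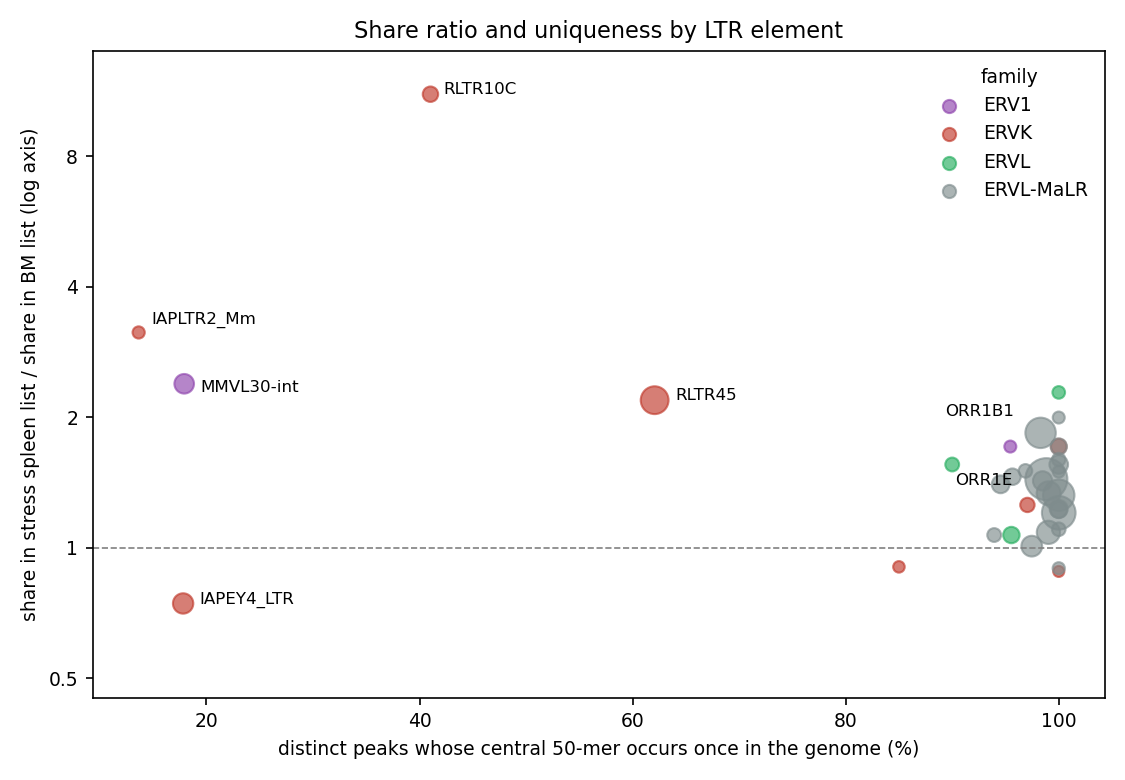
Ratio of shares, stress spleen BFU-E over BM BFU-E (vertical axis, log scale), against the percent of an LTR name's peaks whose central 50 bases occur once in the reference (horizontal axis). Each point is a name and its area scales with the number of stress spleen peaks; RLTR10C lies highest at 11.1 with 41.0% of centres found once, while IAPLTR1_Mm, with no BM peak, has no ratio and is not drawn.

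Restricting the lists to peaks with a centre found once left the LTR share at 5.59% in stress spleen and 4.17% in BM. RLTR10C kept 16 stress spleen and 0 BM peaks. RLTR45 kept 87 and 20, a ratio of 2.49 (1.52 to 4.27). MMVL30-int kept 12 and 4, and IAPEY4_LTR 13 and 11.

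Some IAPEY4_LTR peaks came in pairs. In the stress spleen list 14 pairs of neighbouring IAPEY4_LTR peaks lay within 10 kb of each other, at 7693 to 8254 bp, and 28 of the 73 peaks were in such pairs. In the BM list 11 pairs did, at 7642 to 8121 bp. Such pairs stood near Dydc2, Cyp4f18, Hunk and Mrgprb5, which had 5 or 6 LTR peaks over both lists. Other elements also had like neighbours within that distance: 6 of 20 IAPLTR1_Mm peaks at 4868 to 4965 bp, 6 of 22 IAPLTR2_Mm peaks at 2934 to 3866 bp and 18 of 67 MMVL30-int peaks at 634 to 908 bp. None of the 39 RLTR10C peaks had one, and 4 of 333 ORR1E peaks did.

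Sites for blood transcription factors were searched as consensus words within 100 bases of each centre, on both strands. The words were GGAAGT for ETS factors, GAGGAAGT for PU.1 (which holds the ETS word), AGATAA, also with T first or G last, for GATA factors, TGTGGT for RUNX, CTG followed by GATAA after 7 or 8 bases for TAL1-GATA (overlapping the GATA word), CCNCNCCC for KLF, CCAATCA for NF-Y, TGANTCA for AP-1, TGATTNAT for HOX-MEIS, TTGCNNAA for CEBP, ACANNNTGT for the glucocorticoid receptor and, for CTCF, CC and AG with 3 bases between, then GGC after 2 more. A match describes letters and is not a bound site.

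ETS words stood out in LTR peaks. They occurred in 40.6% of stress spleen LTR peaks against 23.7% of other distal peaks there, and in 36.9% of BM LTR peaks against 24.1%. PU.1 words occurred in 15.5% against 5.0% in stress spleen and in 13.5% against 5.2% in BM. GATA words were in 39.9% of stress spleen LTR peaks against 32.8% of other distal peaks, and RUNX words in 34.8% against 26.4%. CTCF went the other way, with 8.0% of LTR peaks and 15.8% of other distal peaks in stress spleen, and 37.8% of SINE peaks. KLF (26.6% against 24%) and AP-1 (8.3% against 9.4%) differed little between LTR and other distal peaks.

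The words in LTR peaks were much alike whether or not the peak overlapped one in BM. Stress spleen LTR peaks outside the BM list held ETS words in 41.6% and GATA words in 40.3% of cases. Those overlapping the BM list held them in 39.1% and 39.2%. NF-Y words stood apart, at 7.16% (6.2 to 8.3) outside and 3.6% (2.8 to 4.7) overlapping. RLTR10C, IAPLTR1_Mm and IAPLTR2_Mm, which lay largely outside the BM list, are rich in NF-Y words.

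The words varied between elements, and ETS words were frequent in several of them. ORR1B1 held ETS words in 78% and RLTR45 in 81% of peaks, and RLTR45 also held KLF words in 82%, RUNX words in 69% and GATA words in 61%. ORR1D2 held RUNX words in 52% and ETS words in 63%. MTD held GATA words in 48% and HOX-MEIS words in 20%. RLTR10C held GATA words in 82% and NF-Y words in 79%, and IAPLTR1_Mm held NF-Y words in 95% and glucocorticoid receptor words in 80%. IAPEY4_LTR held CEBP words in 84% and ETS words in 1%.

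**Figure D4:**
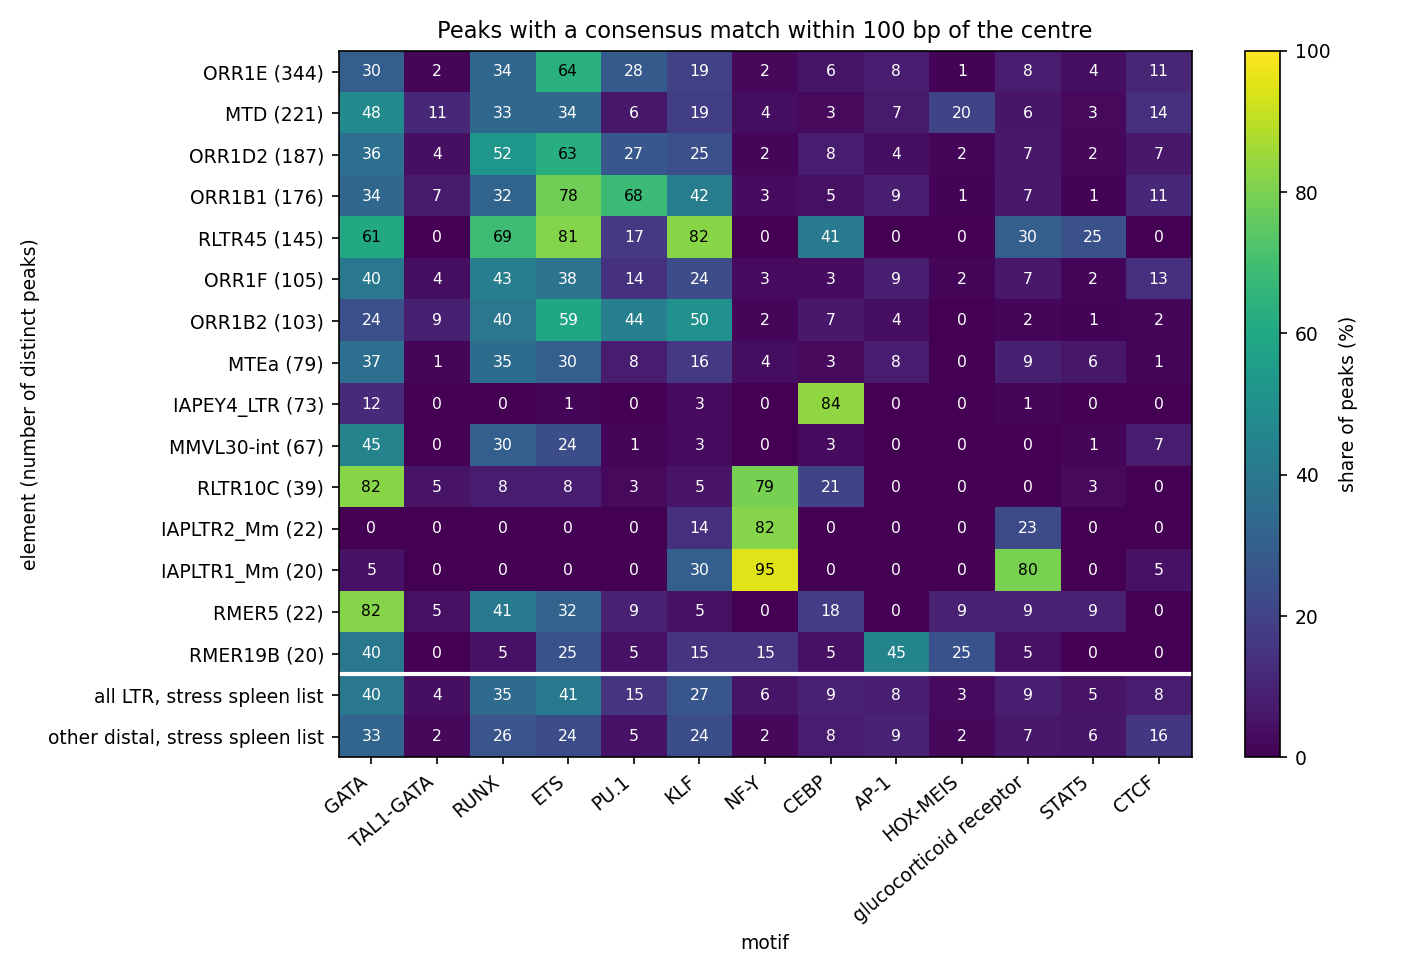
Percent of peaks of each LTR name (rows) that hold a consensus word within 100 bases of the centre (columns), over the distinct LTR peaks of both lists. Brighter is higher. All LTR peaks and other distal peaks of the stress spleen list are given for comparison. ORR1B1 and RLTR45 are high in ETS words, RLTR10C in GATA and NF-Y words and IAPEY4_LTR in CEBP words.

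Genes near LTR peaks were next compared in RNA. The gene was the one with the nearest annotated start within 50 kb of the peak. Stress spleen LTR peaks had 2189 such genes, of which 1904 had 1 LTR peak and none more than 6. BM LTR peaks had 981. Genes were tested with edgeR's quasi-likelihood test over the whole table, with Benjamini-Hochberg adjustment and a threshold of 0.05. The comparison of stress spleen BFU-E with BM BFU-E and that of CFU-E with BFU-E share the same stress spleen BFU-E libraries.

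Between stress spleen BFU-E and BM BFU-E few genes of any kind were called. Of 10702 genes tested 12 passed (0.112%), 1 higher (0.00934%) and 11 lower (0.103%) in stress spleen. Of the 1430 tested genes with an LTR peak in either list 1 passed, and of the 1320 with one in the stress spleen list none did. At an unadjusted p under 0.05 there were 129 of those 1320 genes, and 1053 of all genes tested (9.84%). Groups did not overlap for 307 of them (23.3%), against 21.9% of all genes tested. DESeq2 called 87 of those 1320 genes, 36 higher and 51 lower in stress spleen, and 685 of all genes, so the number called in this comparison rests on the tool. Without BM library 3 edgeR called 27 genes, 4 of them with an LTR peak in either list, and without stress spleen library 2 or 3 it called none. The median log2 fold change was 0.02 for genes near stress spleen LTR peaks and 0.01 for all genes. The 746 tested genes whose LTR peaks all lay outside the BM list included no call by edgeR, with 66 at an unadjusted p under 0.05 and 43 calls by DESeq2.

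The called gene was Tifab, a TIFA-related inhibitor of TRAF6 signalling. Tifab had 17.3, 13.5 and 11.8 CPM in stress spleen BFU-E, against 85.1, 164 and 209 CPM in BM BFU-E. Every stress spleen library was lower than every BM library. The log2 fold change was −3.43 ± 0.40 (SE), with an edgeR adjusted p of 0.0325. Its LTR peak, on an LTR33A_ element at chr13:56169886-56170194, was in the BM list alone, with a score of 457 and 8.8 kb from the gene start. The macrophage gene Csf1r moved the same way, with a log2 fold change of −3.31 ± 0.41 and an edgeR adjusted p of 0.0373, and Adgre1 averaged 0.507 CPM in stress spleen BFU-E and 9.11 CPM in BM BFU-E but was not called (edgeR adjusted p = 0.594). Csf1r too lost its call when 1 library other than BM library 3 was left out, with adjusted p up to 0.290. The macrophage markers C1qa and Vcam1 were not among the genes tested. The part of such cells in the Tifab difference was not tested. Tifab lost its call when any 1 stress spleen library or BM library 2 was left out, with adjusted p up to 0.274.

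Between CFU-E and BFU-E of the stressed spleen, genes near LTR peaks fell more often than they rose. Of 1265 tested genes with a stress spleen LTR peak 306 were called (24.2%), against 21.1% of all 10166 genes tested. There were 104 higher in CFU-E (8.22%), where the background was 9.17%, and 202 lower (16%), where the background was 11.9%. Tested genes with another distal peak but no LTR peak had similar shares, with 25.4% called, 9.81% higher and 15.6% lower. The median log2 fold change was −0.06 near stress spleen LTR peaks and −0.00 over all genes. Whether the LTR peak overlapped the BM list went with close shares called, 24.2% of genes whose LTR peaks were all outside it and 23.5% of genes with an overlapping one.

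Genes with an LTR peak that rose in CFU-E included 1 of the red cell and haem list, Cpox, and 1 of the erythroid regulators, Ldb1. Cpox, coproporphyrinogen oxidase of haem synthesis, had 268, 293 and 221 CPM in CFU-E, against 85.6, 88.7 and 87.8 CPM in BFU-E. All CFU-E libraries lay above all BFU-E libraries, and the log2 fold change was 1.58 ± 0.14 (SE; edgeR adjusted p = 2.5e-08). Its peak, on an ORR1E copy at chr16:58661679-58662277, lay 8.23 kb upstream with a score of 763 and no BM counterpart. The window of 100 bases on each side of its centre is shown with GATA, RUNX and ETS words in capitals on either strand, as in the windows that follow.

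ORR1E near Cpox, chr16:58661878-58662078, plus strand: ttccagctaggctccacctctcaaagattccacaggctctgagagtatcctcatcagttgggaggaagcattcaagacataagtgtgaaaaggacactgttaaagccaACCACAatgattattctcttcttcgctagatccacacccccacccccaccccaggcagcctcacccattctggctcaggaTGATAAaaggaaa

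Ldb1, the adaptor that joins GATA1 and TAL1 complexes at distant enhancers, had 295, 350 and 361 CPM in CFU-E, against 163, 170 and 180 CPM in BFU-E. The groups did not overlap, and the log2 fold change was 0.97 ± 0.11 (edgeR adjusted p = 1.5e-06). Its peak, at chr19:46050339-46050896 on MLTR11B, lay 5.41 kb upstream and overlapped a BM peak on the same element. The window holds a RUNX word directly joined to a GATA word.

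MLTR11B near Ldb1, chr19:46050517-46050717, plus strand: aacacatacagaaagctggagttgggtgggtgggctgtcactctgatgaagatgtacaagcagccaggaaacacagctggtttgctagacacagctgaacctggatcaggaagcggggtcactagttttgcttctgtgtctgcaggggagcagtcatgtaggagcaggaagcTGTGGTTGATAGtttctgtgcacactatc

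Other genes that rose had wider roles. Mt2, a metallothionein, had 71.8, 87.5 and 68.4 CPM in CFU-E, against 4.86, 3.51 and 1.5 CPM in BFU-E, with no overlap. The log2 fold change of Mt2 was 4.52 ± 0.46 (edgeR adjusted p = 2.3e-07). Its peak on MLT1E1 at chr8:94167339-94167597 was in both lists. Golm1, a Golgi membrane protein, averaged 216 ± 13.1 CPM in CFU-E and 37.7 ± 6.0 CPM in BFU-E (SD, n = 3 each). Its groups did not overlap, and its log2 fold change was 2.52. The Golm1 peak on RMER15 at chr13:59656249-59657380 was in both lists. The tetraspanin Cd82, the transcriptional repressor Tgif1, the dynein component Wdr60 and the transporter Slc22a23 were also among the 8 largest rises, with log2 fold changes of 2.95, 1.75, 1.88 and 1.83; Slc22a23 lost its call under DESeq2. Between stress spleen BFU-E and BM BFU-E, Ldb1 averaged 174 and 231 CPM (edgeR adjusted p = 0.46).

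Among called genes with a stress spleen LTR peak, a mean of at least 20 CPM and groups that did not overlap, the 8 largest falls were Vwf, Plek, Mmrn1, Srgap3, Mrvi1, Kcnj5, Trpc6 and Mylk. Platelet genes without an LTR peak within 50 kb fell as well, with log2 fold changes of −9.68 for Pf4 and −3.63 for Itga2b. Vwf, the platelet adhesion protein von Willebrand factor, had 14.7, 15.5 and 21.4 CPM in CFU-E, against 573, 616 and 497 CPM in BFU-E. All 3 CFU-E libraries lay far below all BFU-E libraries, with a log2 fold change of −5.04 ± 0.15 (edgeR adjusted p = 1.2e-15). MPP, the less mature cells, had 495, 455 and 411 CPM, close to BFU-E. An ORR1F copy in a Vwf intron carried a peak at chr6:125583576-125584462 with a score of 1000 in stress spleen and a peak with a score of 489 in BM. An MTC copy at chr6:125557280-125557583, also intronic, carried a peak in stress spleen alone.

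ORR1F near Vwf, chr6:125583919-125584119, plus strand: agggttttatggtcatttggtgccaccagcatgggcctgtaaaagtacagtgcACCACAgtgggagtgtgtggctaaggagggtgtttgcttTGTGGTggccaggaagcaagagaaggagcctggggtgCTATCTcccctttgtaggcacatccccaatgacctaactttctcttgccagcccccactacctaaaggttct

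Plek, the platelet protein kinase C substrate pleckstrin, had 12.6, 16 and 11.8 CPM in CFU-E, against 516, 518 and 480 CPM in BFU-E. The groups lay far apart, with a log2 fold change of −5.22 ± 0.17 (edgeR adjusted p = 6.5e-15). Its intronic peak on RMER19C at chr11:17000986-17001326 was in both lists, and Plek averaged 513 CPM in stress spleen BFU-E and 591 CPM in BM BFU-E (edgeR adjusted p = 0.838).

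RMER19C near Plek, chr11:17001056-17001256, plus strand: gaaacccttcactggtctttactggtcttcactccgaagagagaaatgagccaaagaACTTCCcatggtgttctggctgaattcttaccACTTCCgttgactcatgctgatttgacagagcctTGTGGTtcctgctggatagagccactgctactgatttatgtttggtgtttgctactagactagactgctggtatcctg

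Mylk, myosin light chain kinase, averaged 3.05 ± 3.43 CPM in CFU-E and 46.5 ± 14.1 CPM in BFU-E (SD, n = 3 each; log2 fold change −3.93). Its peak lay 45.9 kb upstream at chr16:34738713-34739398. The stress spleen peak was centred on an ORR1E copy and the overlapping BM peak on the ORR1B1 copy beside it.

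ORR1E near Mylk, chr16:34738955-34739155, plus strand: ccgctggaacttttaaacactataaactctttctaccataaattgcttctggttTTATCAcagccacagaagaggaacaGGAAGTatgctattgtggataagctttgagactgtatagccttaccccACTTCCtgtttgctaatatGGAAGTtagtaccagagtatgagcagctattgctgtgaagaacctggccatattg

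The window near Mylk holds 3 ETS words and a GATA word. The other large falls were Mmrn1 (multimerin, stored in platelets), Srgap3, Mrvi1 (a substrate of cGMP-dependent kinase), and the ion channel genes Kcnj5 and Trpc6. Their log2 fold changes ran from −4.24 for Srgap3 to −6.93 for Kcnj5, and in all 5 the groups did not overlap. Kcnj5 and Trpc6 averaged 0.568 and 0.506 CPM in CFU-E, so the size of their fall depends on the handling of low counts.

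**Figure D5:**
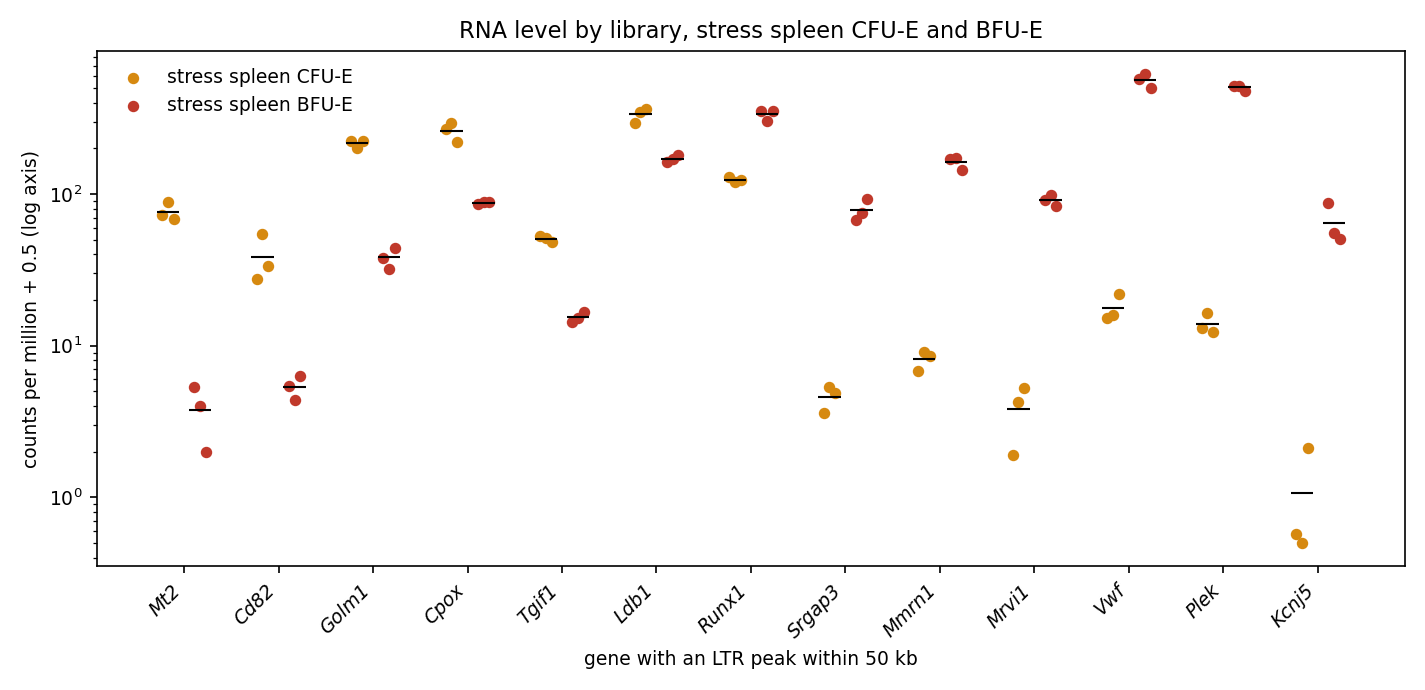
RNA level (CPM + 0.5, log axis) of genes near LTR peaks in each stress spleen CFU-E library (left of each pair) and BFU-E library (right); lines mark means of 3 libraries. Vwf and Plek are below 25 CPM in CFU-E, while Cpox is above 200 CPM there.

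Of all 10702 genes tested in BFU-E, 1430 had an LTR peak of either list within 50 kb. The fixed lists were counted whole, with genes tested or not. Genes with such a peak were 2 of 16 erythroid regulators (Ldb1 and Runx1) and 1 of 19 red cell and haem genes (Cpox). They were also 2 of 12 stem cell and megakaryocyte genes (Vwf and Procr), 1 of 11 mast cell and myeloid genes (Ms4a2) and 1 of 14 interferon response genes (Mx1). In that order 16, 13, 11, 10 and 12 genes of the lists were tested in BFU-E, and Procr was not. Runx1, a master regulator of blood stem cells and megakaryocytes, averaged 124 ± 4.68 CPM in CFU-E and 336 ± 28.4 CPM in BFU-E (SD, n = 3 each). Its log2 fold change was −1.44 ± 0.12 (edgeR adjusted p = 1.5e-08). Its MTEb peak, at chr16:92807635-92808471 in an intron, was in both lists. Procr, a stem cell receptor, was at 0 to 0.277 CPM in CFU-E and BFU-E alike and at 9.93 to 22.3 CPM in MPP, although its LTR16A peak was present in stress spleen BFU-E with a score of 968.

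Over both lists, counting a site once for each list, Gm4070 had 8 LTR peaks and Hunk, Klhl25 and Sgms1 had 6 each. The other genes named for their number of LTR peaks tied with further genes at 5 and were taken from the tie in alphabetical order. Gm4070 had 6 stress spleen and 2 BM LTR peaks, at a pair of places on chromosome 7 that are both annotated to it, so its count is uncertain. Sgms1, sphingomyelin synthase 1, had 4 and 2, in its introns, and averaged 50.4 ± 6.16 CPM in CFU-E and 86.5 ± 15.1 CPM in BFU-E (SD, n = 3 each). The Sgms1 difference was −0.78 on the log2 scale, with an edgeR adjusted p of 0.0057. Herpud1, a protein of endoplasmic reticulum stress, averaged 59.0 and 79.9 CPM in CFU-E and BFU-E (edgeR adjusted p = 0.196), and Klhl25, a ubiquitin ligase adaptor, 8.42 and 15.8 CPM (edgeR adjusted p = 0.23). Frs2, an adaptor of fibroblast growth factor receptors, had an RLTR10C peak in an intron at chr10:117131256-117131880 and averaged 43.9 and 41.8 CPM in CFU-E and BFU-E (edgeR adjusted p = 0.86). Of the 39 genes with 3 or more stress spleen LTR peaks, 21 were tested and 8 called by edgeR, 1 higher and 7 lower in CFU-E, where 21.1% of all genes were called, 9.17% higher and 11.9% lower. DESeq2 called 10 of the 21, 3 higher and 7 lower.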

How the data were processed

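Counts of RNA-seq reads per gene were deposited by the authors in 2 tables, and ATAC-seq peaks as 1 list for each population, where a score stands beside each peak as deposited by the authors. The submitters' processing notes name HOMER 4.8, DESeq2, Bowtie2 2.3.4.2 and STAR 2.6.0b-1, and mm10/GRCm38. The peak caller, the reproducibility threshold and the counting strand are not given in the sources used here. Rows of a list with the same interval were merged. Overlap meant at least 1 shared base (bedtools 2.31.1). Copies of the central 50 bases and consensus words within 100 bases of the centre were read from the reference with pysam 0.24.0 under Python 3.11.15.

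RNA counts were tested with edgeR 4.0.16 (R 4.3.3, TMM, quasi-likelihood, no covariate; the fit of the spleen table held all 9 libraries, MPP included). The BFU-E table was labelled by the authors as already filtered at a mean of 50 tags, and all of its 10702 genes were kept. The spleen table, with 24072 genes, was filtered here at a mean of 50 counts, which left 10166. The script was tested on simulated data. CPM are TMM-normalised. Spleen BFU-E counts were the same in both tables. Groups came from the labels, and replicate numbers were not taken as pairs. DESeq2 1.42.0 (with the local dispersion trend for the BFU-E table, where its parametric trend was at the edge of convergence and gave fewer calls when reached), other filters, distances, scores and left-out libraries were tried as alternatives.

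The genes named are those called between stress spleen and BM with an LTR peak within 50 kb, the 8 largest rises and falls in CFU-E among genes that averaged 20 CPM or more and whose groups did not overlap, the 10 with most LTR peaks, and members of fixed lists; an item of that set is not reported here. The elements given with counts were taken from the 10 most frequent and from those with the largest or smallest ratios among names with at least 20 peaks. Not every name under that rule is given. Members and lists were chosen with earlier results of these data known.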

Additional observations from a re-analysis of the deposited data

How the results depend on the processing

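Of 83 alternatives for the main values, 44 left the value within its limits and 39 moved it; 445 of 478 for the single genes given kept direction and side of the threshold, 31 lost a call and 2 turned (Frs2, not called, whose log2 fold change ran from −0.047 to 0.20 with 1 library left out and was below 0 without stress spleen BFU-E library 2 or CFU-E library 3). The LTR share in stress spleen and BM BFU-E was 4.59% and 3.24% with intervals unmerged, 5.70% and 4.08% at a score of at least 540, 7.83% and 6.63% beyond 1 kb, 8.35% and 7.06% beyond 10 kb, and 5.59% and 4.17% with centres found once, the last chosen after seeing the data, as were the ratios. The equal-length list gave 4.64% in stress spleen. The ratio was 1.18 beyond 1 kb, 1.18 beyond 10 kb and 1.04 at equal length. Overlap of stress spleen and BM LTR peaks was 36.2% and 87.0% with the reciprocal rule, and 35.6% and 93.4% at the higher score. GATA words were in 22.9% of LTR and 18.4% of other distal peaks within 50 bases, and in 66.9% and 60.1% of whole peaks.

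Between stress spleen and BM BFU-E, edgeR calls numbered 3 with a replicate block (0 with an LTR peak) and 0 to 27 with 1 library left out (0 to 4 with an LTR peak; 7, 0 and 0 in all without stress spleen library 1, 2 or 3, and 4, 5 and 27 without BM library 1, 2 or 3), against 685 by DESeq2 with a local dispersion trend (96 with an LTR peak) and 579 with a mean trend, chosen after seeing the data (76 with an LTR peak). Without a distance limit 3 genes with an LTR peak were called. Between CFU-E and BFU-E, 111 genes were called with an LTR peak within 10 kb, 2221 in all with a replicate block (315 near LTR peaks), and 1649 to 2340 with 1 library left out (236 to 333 near LTR peaks). In deviations from group means, same-numbered libraries of stress spleen and BM BFU-E correlated at −0.036 to −0.030. Among the spleen populations all same-numbered libraries correlated above 0, at 0.015 to 0.116, and other pairs at −0.090 to 0.030. The labels do not say what the numbers mean, and they were not taken as pairs. The replicate block takes them as pairs. Slc22a23 lost its call under DESeq2 (adjusted p = 0.0748) and without any of 3 single libraries. The causes were not tested. With 1 peak list per population, no replicate spread exists for any ATAC value, and the ATAC depth is unknown here.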

Other observations

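Of a list of 33 genes that control retroelements, 31 were tested in each comparison. Between CFU-E and BFU-E 8 were called by edgeR, 5 higher and 3 lower in CFU-E, against 21.1% of all genes tested. The DNA methyltransferases fell together: Dnmt3a averaged 94.6 ± 5.35 CPM in CFU-E and 190 ± 13.9 CPM in BFU-E, Dnmt3b 87.8 ± 10.2 and 154 ± 12.5 CPM, and Dnmt1 955 ± 35.3 and 1158 ± 7.34 CPM (SD, n = 3 each). Their log2 fold changes were −1.01, −0.81 and −0.28. Apobec3, a cytidine deaminase that restricts retroelements, averaged 200 ± 8.78 CPM in CFU-E and 123 ± 8.79 CPM in BFU-E, and Daxx, a histone H3.3 chaperone, 128 ± 22.4 and 65.4 ± 6.03 CPM (SD, n = 3 each). Their log2 fold changes were 0.70 and 0.96. Setdb1, Trim28 and Zc3hav1 were higher in CFU-E by log2 fold changes of 0.41, 0.26 and 0.39, and lost their calls in 6, 5 and 5 of the alternatives, with edgeR adjusted p up to 0.130, 0.139 and 0.0832. Between stress spleen BFU-E and BM BFU-E edgeR called 0 of 31, where it called 0.112% of all genes, and DESeq2 called 5, where it called 685 of 10702. At an unadjusted edgeR p under 0.05 there were 9 of 31, against 9.84% of all genes. They went both ways: Dnmt3b, Cbx5, Uhrf1 and Zc3hav1 were higher in stress spleen, and Samhd1, Morc3, Trex1, Pphln1 and Cbx1 lower. Of the 31 genes 18 had a log2 fold change above 0 and 13 below, with a median of 0.19, against 0.01 over all genes.

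On chromosome Y, 11 of 24 stress spleen peaks (45.8%) and 1 of 12 BM peaks (8.33%) were centred on an LTR. On the autosomes the share ran from 4.40% to 7.34% in stress spleen and from 3.12% to 5.69% in BM.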
